A study of Oreochromis niloticus with 18 samples.

Results

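Liver mRNAs that stood higher after both T2 and T3 are described here: 199 transcripts of Nile tilapia (Oreochromis niloticus), out of 26763 quantified. Whole juvenile fish, 4 months old, were immersed for 12 h in 25 nM 3,5-diiodothyronine (T2) or in 25 nM 3,5,3′-triiodothyronine (T3). Controls received no thyroid hormone, and the study's methods do not say whether they were given the hormones' solvent. RNA was sequenced from liver, cerebellum and thalamus-pituitary. Each tissue had 2 libraries per treatment, 18 in all: a liver library came from 1 fish and a brain library from a pool of 4 fish. The T2 and T3 comparisons within a tissue share the same 2 control libraries. The labels do not say whether the livers came from fish that also gave brain tissue. By the study's methods, 2 brain pools of 4 fish used as many fish as were treated per group. Liver, cerebellum and thalamus-pituitary samples of a group would then share fish. The fish were sexually undifferentiated by the study's methods.

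The transcripts were chosen on liver values, so their liver difference between hormone and control is a description and not a result. Levels are in CPM: each library's estimated effective counts divided by their sum and multiplied by 1000000. Transcripts were kept at a mean liver level of 5 CPM or more and a liver to brain ratio under 100 (0.1 CPM added to both means), which left 7747. These were ranked by the lowest of the 4 T2 and T3 livers over the highest of the 2 control livers, 1 CPM added to each, and the top 200 were taken, less 1 that was set aside and is not reported here. The ratio ran between 5.31 and 31.9, with a median of 6.74. Just inside the limit were RPAP1 (5.32) and ENSONIT00000019738 (5.31), and just outside were AGPAT5 at 5.26 and ENSONIT00000011946 at 5.26. A gene symbol was paired with 81 of the 199, and the other 118 are known here by transcript identifier only. The symbols come from genes that the study listed as hormone-responsive in these same samples. The counts per gene list and per marker list below are therefore not independent evidence of a direction. Shares over all transcripts are not a matched background for them, since these also cover transcripts not on the study's list. Genes and markers in these lists are counted as transcripts, and a symbol can be paired with more than 1.

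Thyroid hormones act on transcription mainly through nuclear receptors that bind DNA near their target genes. T3 is the classical ligand, T2 is a product of its deiodination that is also active in teleosts, and liver is a main target, where these hormones are known for their effects on mitochondria, lipids and protein turnover. Transcripts with a symbol in the set include genes of machinery that every cell uses: charging of tRNA, ribosome assembly, mitochondrial import and translation, protein folding, nuclear transport and the proteasome.

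The libraries held between 1568851 and 6585242 counts, and the shallowest liver library was control replicate 1, with 2090615. The 20 most abundant transcripts took 21.3 to 23.3% of the counts in hormone livers and 26.3 to 27.4% in control livers. Marker genes could be matched only through a symbol, so only among genes that the study listed as hormone-responsive. Their sums and test counts therefore do not show whether a cell type's markers moved as a class. The 19 hepatocyte transcripts matched summed to 32831 to 44805 CPM in hormone livers, against 62671 and 67478 CPM in control livers. Of the 18 tested by edgeR, 18 passed as lower with T2 and 13 with T3. In brain the 19 summed to 20.2 to 59.8 CPM, while the neuron markers summed to 1349.7 to 3366 CPM there and to at most 5.96 CPM in liver. Markers of exocrine pancreas, which fish carry within or beside the liver, summed to 24158 to 33661 CPM in hormone livers, against 89808 CPM in control replicate 1 and 33736 CPM in control replicate 2. The 12 immune markers summed to 34.3 to 62.7 CPM in hormone livers, against 654 and 167 CPM in control livers, the 7 connective tissue markers to 406 to 472 CPM, against 675 and 954 CPM, and the 5 blood markers to 2978 to 4135 CPM, against 5089 and 7952 CPM. Of those tested by edgeR, 7 of 10 immune, 3 of 7 connective tissue and 4 of 4 blood markers passed as lower with T2. With T3 the counts were 5, 3 and 4. Of 12 exocrine pancreas markers tested, 4 passed as lower with T2 and 1 with T3. Of 57 marker transcripts in these lists 17 were past the expression limits, and none of the 17 was a member. The others could not be, and members without a symbol could not be matched. Fewer cells of a type and less RNA per cell cannot be told apart in such samples, and the part these markers play in the values below was not tested.

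Across the 199, the median level was 71.8 and 65.0 CPM in T2 livers, 58.8 and 55.8 CPM in T3 livers and 4.92 and 5.45 CPM in control livers. The set as a whole took 2.91 and 2.99% of the counts in T2 livers, 2.67 and 2.33% in T3 livers, and 0.214 and 0.242% in control livers. For the 191 transcripts with more than 3 counts over the control livers, the mean of the 4 hormone livers over the mean of the 2 control livers ran between 6.68 and 107 with a median of 12.3. It lay between 5 and 10 in 56 of them, between 10 and 20 in 96 and at 20 or above in 39. By choice the groups did not overlap for any member, and 52.2% of the 7747 transcripts past the expression limits also had all 4 hormone livers above both controls. Scaling bears on the size of these folds: on library totals the median transcript tested stood 0.61 (T2) and 0.54 (T3) higher in log2 than in control, whereas edgeR's TMM scaling brought it to 0.01 and -0.02 and gave the 199 a median log2 fold change of 3.11 for T2 and 2.94 for T3.

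**Figure D1:**
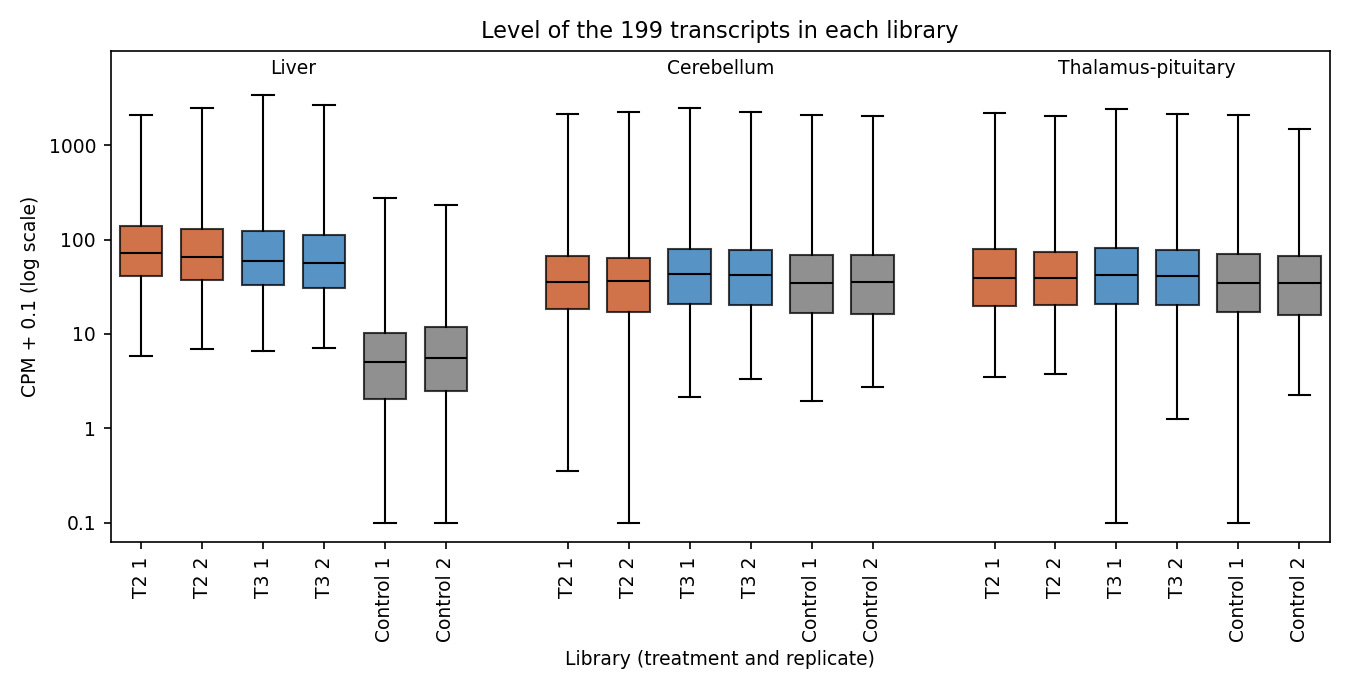
Level of the 199 transcripts in each of the 18 libraries, as CPM plus 0.1 on a log axis. Boxes span the quartiles with the median as a line, and whiskers reach the lowest and highest transcript. Median levels are 55.8 to 71.8 CPM in the 4 hormone livers, 4.92 and 5.45 CPM in the control livers and 34.6 to 42.7 CPM in the 12 brain libraries.

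Aminoacyl-tRNA synthetases, which attach amino acids to their tRNAs before translation, held 3 of the 4 highest ranks. VARS, the valyl-tRNA synthetase, ranked first, at 87.1 and 114 CPM in T2 livers, 103 and 66.96 CPM in T3 livers and 0.605 and 1.13 CPM in control livers. Its mean in hormone livers was 107 times the control mean, although the control level rests on 1 count and 7 counts. MARS, the methionyl-tRNA synthetase, had 102 and 99.8 CPM in T2 livers, 112 and 104 CPM in T3 livers and 4.93 and 3.08 CPM in control livers. TARSL2, a threonyl-tRNA synthetase-like enzyme, had 181 and 171 CPM in T2 livers, 146 and 154 CPM in T3 livers and 7.75 and 7.24 CPM in control livers. Their means in hormone livers were 26.05 and 21.8 times the control means, and while T2 and T3 livers overlapped for VARS, both T3 livers were above both T2 livers for MARS and below them for TARSL2. YARS, the tyrosyl-tRNA synthetase, had 126 and 117 CPM in T2 livers, 117 and 98.3 CPM in T3 livers and 8.46 and 7.31 CPM in control livers. Of the 10 paired synthetase transcripts past the expression limits, 4 were in the set and 9 had every hormone liver above both controls. Every hormone liver was above both controls for 52.2% of all transcripts past the limits. Among 7 synthetases outside the set, edgeR's quasi-likelihood test with Benjamini-Hochberg adjustment called 3 higher with T2 and 2 higher with T3 in liver, and none lower. Over all transcripts, listed by the study or not, it called 12.2% higher with T2 and 8.55% higher with T3.

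Ribosome assembly gave TBL3, EFL1, WDR46 and WDR3. TBL3, a component of the small subunit processome that matures pre-ribosomal RNA, had 75.6 and 52.7 CPM in T2 livers, 39.9 and 52.97 CPM in T3 livers and 0 and 1.70 CPM in control livers. The control library at 0 was the shallow replicate 1, and the fold of 65.00 rests on 11 counts in replicate 2. EFL1, a GTPase that helps to release an assembly factor from the large subunit, had 39.4 and 32.4 CPM in T2 livers, 27.9 and 27.9 CPM in T3 livers and 1.45 and 2.90 CPM in control livers. WDR46 and WDR3, further small subunit assembly factors, had hormone means 11.1 and 8.64 times their control means. ENSONIT00000019750, which has no symbol, held the same value as the WDR3 transcript in each of the 18 libraries, so the 199 hold 198 distinct profiles and counts over the 199 take this pair as 2. Of 39 further genes of ribosome biogenesis, 30 passed the test as higher with T2 and 26 with T3, and 1 as lower with each. All 39 were on the study's list of responsive genes. The 25 cytosolic ribosomal proteins on the study's list went the other way, and none was in the set. Of these, 22 passed the test as lower with T2 and 14 with T3, and 1 passed as higher with each. The test called 8.85% of all transcripts, listed or not, lower with T2 and 5.05% with T3. It called 12.2% higher with T2 and 8.55% higher with T3.

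Among genes of transcription and tRNA modification, POLR2H, a subunit shared by the nuclear RNA polymerases, had 27.4 and 19.3 CPM in T2 livers, 15.5 and 13.4 CPM in T3 livers and 0 and 0.345 CPM in control livers. Its controls hold 0 and 2 counts, so no fold is given. TRMT1, which methylates tRNA, had 49.1 and 53.6 CPM in T2 livers, 51.3 and 60.9 CPM in T3 livers and 4.41 and 5.01 CPM in control livers. DPH5, an enzyme of the diphthamide modification of elongation factor EEF2, and RPAP1, an RNA polymerase II assembly protein, had folds of 13.4 and 12.8. GSPT1, a translation termination factor, had 278 and 311 CPM in T2 livers, 241 and 205 CPM in T3 livers and 33.3 and 27.1 CPM in control livers. It was the lone member from 15 translation factors past the limits. Of 15 others tested, 9 passed the test as higher and 3 as lower with T2, and 4 and 3 with T3. These 15 came from the study's list of responsive genes. Shares over all transcripts were 12.2% higher and 8.85% lower with T2, and 8.55% and 5.05% with T3. PRMT5, an arginine methyltransferase that acts on splicing and histone proteins, ranked among the highest, with 169.6 and 140.3 CPM in T2 livers, 122 and 96.2 CPM in T3 livers and 4.75 and 5.45 CPM in control livers.

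Members of mitochondrial import and folding cover the entry channel, its receptor, a peptidase and a chaperone. PITRM1, a peptidase that degrades the targeting peptides of imported proteins, had 138 and 109 CPM in T2 livers, 112 and 99.1 CPM in T3 livers and 3.23 and 2.99 CPM in control livers. TOMM40, the channel of the outer membrane, had 48.99 and 48.3 CPM in T2 livers, 40.5 and 44.4 CPM in T3 livers and 1.97 and 1.66 CPM in control livers. TOMM20, a receptor of the same complex, had 165 and 126 CPM in T2 livers, 141 and 129 CPM in T3 livers and 10.9 and 13.1 CPM in control livers. For all 3, every hormone liver lay far above both controls, as the choice required. TOMM20 was lower in brain than in any hormone liver, at 11.04 and 10.8 CPM in T2, 22.4 and 12.3 CPM in T3 and 17.1 and 8.63 CPM in control thalamus-pituitary pools. HSPD1, the matrix chaperonin, had 496 and 458 CPM in T2 livers, 396 and 355 CPM in T3 livers and 32.9 and 32.7 CPM in control livers. The set took 6 of the 23 paired genes of mitochondrial import and folding past the limits. All 23 had each hormone liver above both controls, as had 52.2% of the transcripts past the limits. Of 22 such genes outside the set, 22 passed the test as higher with T2 and 16 with T3, and none as lower. All 22 came from the study's list of responsive genes, and over all transcripts 12.2% passed as higher with T2 and 8.55% with T3.

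Mitochondrial translation gave MRPS27, a small subunit protein of the mitochondrial ribosome, at 84.4 and 64.96 CPM in T2 livers, 47.1 and 60.5 CPM in T3 livers and 3.20 and 1.23 CPM in control livers. FASTKD5 and FASTKD1, which act in mitochondrial RNA processing, reached 17.2 and 12.6 CPM and 16.02 and 12.7 CPM in T2 livers and 12.8 and 11.4 CPM and 10.8 and 9.63 CPM in T3 livers, with at most 2 counts in any control liver. MTPAP, the mitochondrial poly(A) polymerase, had a hormone mean 12.3 times the control mean. Of 30 other mitochondrial ribosome and RNA genes, 25 passed the test as higher with T2 and 21 with T3, and 1 passed as lower with T2. Oxidative metabolism gave PDHB, a subunit of pyruvate dehydrogenase, at 268 and 239 CPM in T2 livers, 189 and 165 CPM in T3 livers and 20.5 and 20.1 CPM in control livers. IDH2, the mitochondrial NADP-dependent isocitrate dehydrogenase, had 95.8 and 126 CPM in T2 livers, 122 and 121 CPM in T3 livers and 6.77 and 13.7 CPM in control livers. COX5A, a subunit of cytochrome c oxidase, had 289 and 224 CPM in T2 livers, 211 and 194 CPM in T3 livers and 12.2 and 33.6 CPM in control livers. The 5 members of that list had the narrowest folds among lists with more than 4 members, 9.13 to 11.3, and COX15, the heme A synthase, was at 9.16. Of 23 other genes of that list, 13 passed the test as higher and 3 as lower with T2. With T3, 6 passed as higher and none as lower. The other genes of both lists came from the study's list of responsive genes. Over all transcripts 12.2% passed as higher and 8.85% as lower with T2, and 8.55% and 5.05% with T3.

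Protein turnover and folding supplied PSMG1, an assembly chaperone of the proteasome with a fold of 16.3, and PSMD8 and PSMD2, subunits of its regulatory particle. PSMD2 had 709 and 669.6 CPM in T2 livers, 557 and 487 CPM in T3 livers and 59.3 and 61.9 CPM in control livers. PSMD8 had 120.2 and 89.5 CPM in T2 livers, 93.6 and 109 CPM in T3 livers and 6.12 and 8.29 CPM in control livers. Of 13 other proteasome genes, 12 passed the test as higher with each hormone and 1 as lower with T3. All 13 came from the study's list of responsive genes, and over all transcripts 12.2% passed as higher with T2 and 8.55% with T3. UBE2N, a ubiquitin-conjugating enzyme, had 59.8 and 49.8 CPM in T2 livers, 37.1 and 48.1 CPM in T3 livers and 2.41 and 5.10 CPM in control livers, and USP14, a deubiquitinase bound to the proteasome, had a fold of 9.75. CAND1, which exchanges the substrate receptors of cullin ligases, was at 10.1. Cytosolic chaperones added PPID, a cyclophilin that works with HSP90, and transcripts of a pair of genes paired with the symbol HSPA4, a nucleotide exchange factor for HSP70. One of these, ENSONIT00000016241, had 377 and 447 CPM in T2 livers, 338 and 274 CPM in T3 livers and 43.5 and 42.2 CPM in control livers, and since they are close relatives their reads may be shared.

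In the endoplasmic reticulum, UGGT1 and UGGT2 sense misfolded glycoproteins and mark them for another folding cycle. UGGT2 had 26.5 and 36.3 CPM in T2 livers, 36.99 and 30.8 CPM in T3 livers and 1.32 and 1.84 CPM in control livers. UGGT1 had 14.96 and 24.3 CPM in T2 livers and 19.4 and 26.3 CPM in T3 livers, against 1.33 CPM and less than 1 count in control livers. HYOU1, a large chaperone of the lumen, had 166 and 214 CPM in T2 livers, 346 and 239.7 CPM in T3 livers and 14.2 and 24.4 CPM in control livers. ALG6, which builds the glycan precursor, had few counts throughout, with 10.4 and 15.1 CPM in T2 livers, 12.5 and 12.3 CPM in T3 livers and 0 and 0.921 CPM in control livers. RER1 and COPB1, which return proteins from the Golgi, had folds of 8.07 and 6.68, and COPB1's was the lowest of the set. All 28 paired genes of this folding and glycosylation list had every hormone liver above both controls. The same held for 52.2% of the transcripts past the limits, and the 28 came from the study's list of responsive genes. Outside the set, 14 of 22 passed the test as higher with T2 and 17 with T3, and none as lower. Over all transcripts 12.2% passed as higher with T2 and 8.55% with T3.

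Nuclear transport gave 6 members of 20 paired genes past the limits. NUP93, a scaffold protein of the nuclear pore, had 103 and 86.3 CPM in T2 livers, 61.9 and 65.03 CPM in T3 livers and 4.26 and 3.08 CPM in control livers. RCC1, the exchange factor of the Ran GTPase, had 51.6 and 48.1 CPM in T2 livers, 33.5 and 30.5 CPM in T3 livers and 2.24 and 0.920 CPM in control livers. RANGAP1 and THOC3, which activate Ran's hydrolysis and couple transcription to mRNA export, were at 18.6 and 12.6 times control. PRPF19, a ubiquitin ligase of the spliceosome, had 145 and 117 CPM in T2 livers, 91.98 and 82.9 CPM in T3 livers and 10.1 and 4.94 CPM in control livers, and USP39, a spliceosome protein, a fold of 10.01. ORC5, of the origin recognition complex, had 14.1 and 10.1 CPM in T2 livers, 12.5 and 10.5 CPM in T3 livers and 0 and 0.648 CPM in control livers, with 0 and 4 control counts.

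Metabolic genes were few among members with a symbol. ODC1, ornithine decarboxylase of polyamine synthesis, was present as a pair of transcripts of 1 gene whose reads may be shared. ENSONIT00000024636 had 20.2 and 19.9 CPM in T2 livers, 14.96 and 12.5 CPM in T3 livers and 0.638 and 1.17 CPM in control livers. AACS, which activates acetoacetate for lipid synthesis, had 77.9 and 69.5 CPM in T2 livers, 56.4 and 47.7 CPM in T3 livers and 2.83 and 3.74 CPM in control livers. TECR, a reductase of fatty acid elongation, had 484 and 414 CPM in T2 livers, 323 and 275 CPM in T3 livers and 31.5 and 39.1 CPM in control livers. ACTR3, an actin-nucleating protein, had a fold of 9.07. No member with a symbol was a classical thyroid hormone signalling gene or target, and the 118 members without a symbol could not be matched. None of 7 such genes past the limits was a member. Of 11 tested, 1 passed as higher with each hormone, while 9 passed as lower with T2 and 5 with T3. All 11 were on the study's list of responsive genes, and over all transcripts 8.85% passed as lower with T2 and 5.05% with T3. The list sought holds metabolic targets as well as transporters, deiodinases and receptors, so these counts do not stand for the latter. The study reported no significant RNA-seq difference for hormone transporters, deiodinases or receptors, and named its strict cut-off as a possible reason. By qPCR in equivalent experiments it reported changes of deiodinases, the transporter MCT8 and receptors with T2 and T3 that differed by tissue. Complement and coagulation genes, secreted by hepatocytes, gave no member with a symbol either, but no more than 7 of 32 were past the limits and could have been members. By the test, 29 of 32 passed as lower with T2 and 20 of 32 with T3, and 1 as higher with each. These 32 were also all on the study's list.

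**Figure D2:**
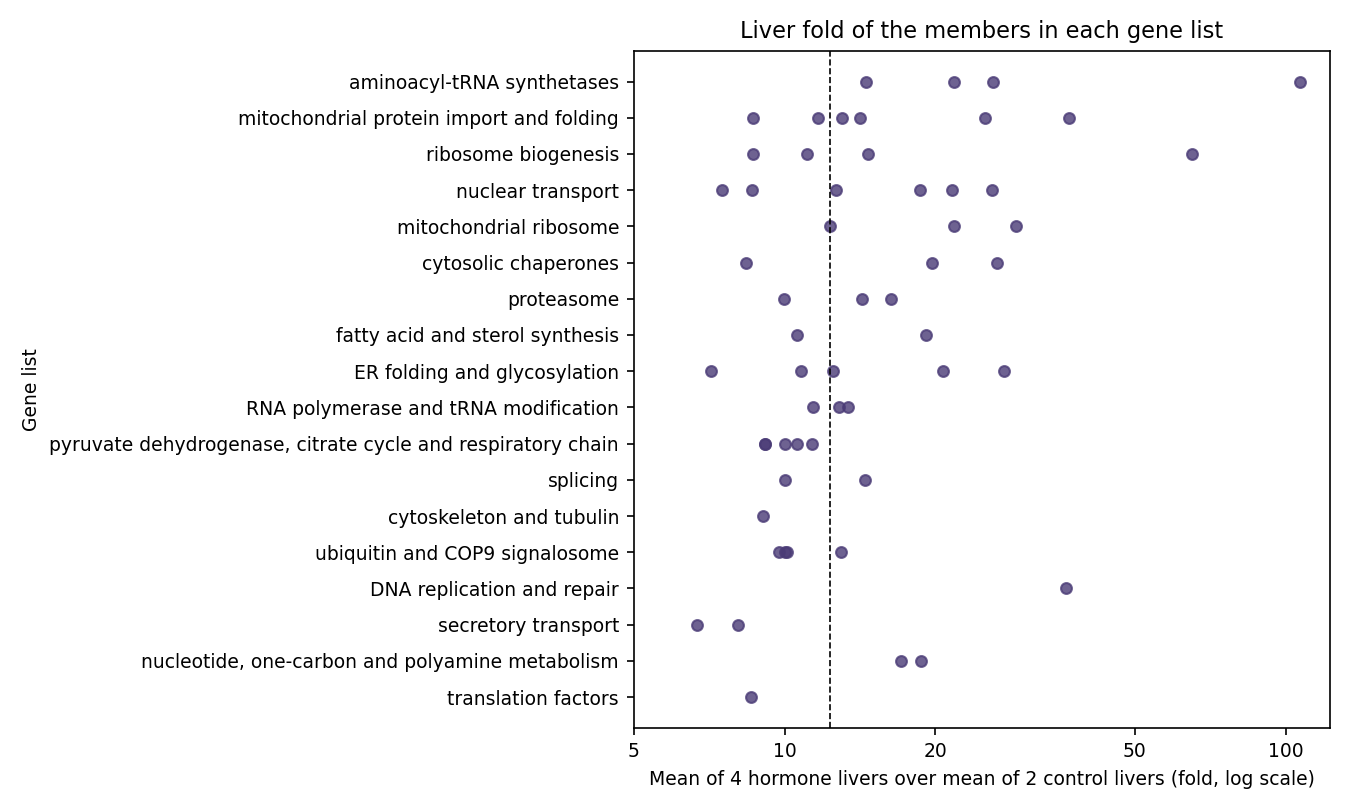
Mean of the 4 hormone livers over the mean of the 2 control livers for each member in a gene list, on a log axis, for members with more than 3 control counts. The dashed line is the median of all such members, 12.3. VARS at 107 and TBL3 at 65.00 lie farthest to the right, and COPB1 at 6.68 farthest to the left.

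Of the 12 highest ranks, 5 belong to transcripts without a symbol. ENSONIT00000001023 had 259.7 and 250.1 CPM in T2 livers, 170.1 and 144 CPM in T3 livers and 8.50 and 4.53 CPM in control livers. ENSONIT00000016441 had 235 and 213 CPM in T2 livers, 187 and 178 CPM in T3 livers and 11.1 and 4.97 CPM in control livers. ENSONIT00000001153, ENSONIT00000014501 and ENSONIT00000010682 had folds of 25.03, 24.5 and 18.96. ENSONIT00000001023 was a transcript with higher levels in brain than in any liver, at 850.3 and 747 CPM in T2, 819.8 and 816 CPM in T3 and 743 and 734 CPM in control cerebellum pools. CPM is not corrected for length, so levels of different transcripts are not compared, but the most counted were ENSONIT00000010731, ENSONIT00000003543 and ENSONIT00000025501. ENSONIT00000010731 had 1719 and 2449.7 CPM in T2 livers, 3424 and 2661 CPM in T3 livers and 276 and 234 CPM in control livers. ENSONIT00000003543 had 1279 and 2239 CPM in T2 livers, 2007 and 1741 CPM in T3 livers and 73.7 and 95.98 CPM in control livers. The fewest counts fell on SNX1, a sorting nexin of endosomes, on ENSONIT00000008734 and on SLC2A11, a sugar transporter of the GLUT family. SNX1 had 8.44 and 9.89 CPM in T2 livers and 6.43 and 6.95 CPM in T3 livers, and its estimated count rounded to 0 in both control livers. Against a floor of 3 counts per control library, 0.952 CPM on average, SNX1 was at least 8.33-fold higher. The same floor gave at least 13.2-fold for ENSONIT00000004930, the other member at 0 in both control livers, named after its values were seen.

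**Figure D3:**
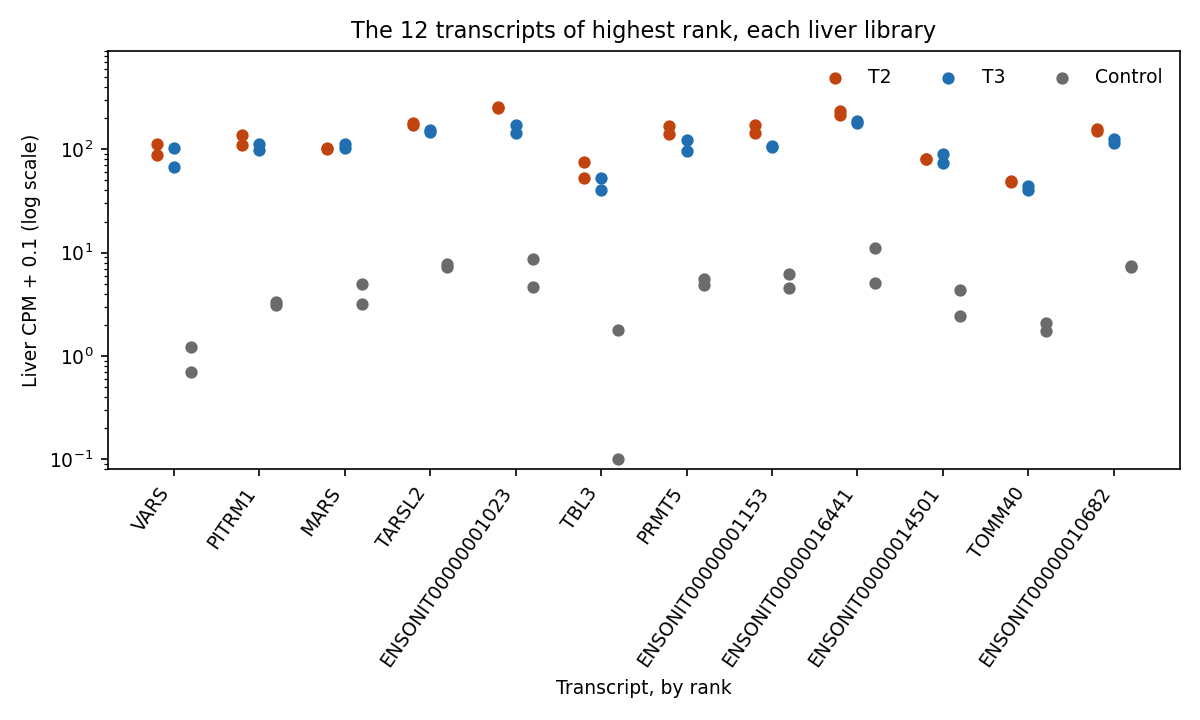
Liver CPM plus 0.1, on a log axis, of the 12 transcripts of highest rank, 1 point per library. T2 and T3 livers lie between 39.9 and 259.7 CPM, and control livers between 0 and 11.1 CPM.

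T2 and T3 livers were then compared with each other, and since the lowest of these same 4 livers set the rank, the values below are a description and not an independent test. The levels leaned to T2: the log2 fold change (T2 over T3) was above 0 for 152 of the 199 (76.4%). It was above 0 for 49% of the 11437 transcripts tested, and for 50.4% of those past the limits. The median of the members was 0.22, against -0.01 over all tested. Both T2 livers lay above both T3 livers for 113 members (56.8%), against 28.3% of the 7747 transcripts past the limits. The reverse held for 10 members (5.03%), against 17.5%. T2 replicate 1 held the highest liver level of 122 of the 199 members, a larger share than the 35.6% of the transcripts past the limits. No single member passed edgeR's quasi-likelihood test at an adjusted p under 0.05, which called 0.0874% of all transcripts. Its exact test and DESeq2 called 2 each. At an unadjusted p under 0.05, 29 members were higher with T2 and 2 lower, against 5.78% and 5.32% of all transcripts, but the 29 became 5 without T3 replicate 2, 16 without T3 replicate 1, 10 in a fit of all 6 liver libraries and 46 on library totals, and the 2 became 10 without T2 replicate 2, 5 without T3 replicate 2 and 1 without T2 or T3 replicate 1. The count above 0 stayed at 135 to 165 over all libraries left out.

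Large differences in this contrast relative to their spread were those of ENSONIT00000014619, ENSONIT00000006206 and ENSONIT00000008854. ENSONIT00000014619 had 944 and 993 CPM in T2 livers, 551 and 477 CPM in T3 livers and 76.7 and 38.8 CPM in control livers, a log2 fold change of 0.85 for T2 over T3 (SE 0.18). ENSONIT00000006206 had 98.1 and 56.1 CPM in T2 livers, 33.3 and 28.4 CPM in T3 livers and 2.84 and 2.67 CPM in control livers, at 1.24 (SE 0.27). The T2 and T3 livers did not overlap for either transcript. ENSONIT00000008854 had 37.3 and 39.1 CPM in T2 livers, 20.8 and 20.2 CPM in T3 livers and 0.519 and 2.37 CPM in control livers, at 0.83 (SE 0.18). ISYNA1, which makes inositol phosphate from glucose phosphate, ran the other way, with 56.8 and 40.02 CPM in T2 livers, 113 and 78.6 CPM in T3 livers and 3.44 and 4.26 CPM in control livers, and its log2 fold change was -1.06 (SE 0.26). Genes of nuclear transport were above 0 in 6 of 6 members, and those of the endoplasmic reticulum in 1 of 6, lists singled out after their values were seen. UGGT1, UGGT2, HYOU1 and ALG6 all had their lowest hormone liver in the T2 group.

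In brain the same transcripts were expressed without a comparable step. Their median level was 35.2 and 36.1 CPM in T2 cerebellum pools, 42.7 and 42.1 CPM in T3 cerebellum pools and 34.7 and 35.3 CPM in control cerebellum pools. In thalamus-pituitary it was 39.4 and 39.1 CPM with T2, 42.2 and 41.1 CPM with T3 and 34.7 and 34.6 CPM in controls. Control liver stood below brain: both control livers were lower than every one of the 12 brain libraries for 182 of the 199. This was a larger share than the 62.2% of the transcripts past the limits. Mean levels exceeded the brain mean for 161 members (80.9%) in T2 livers, 141 (70.85%) in T3 livers and 5 (2.51%) in control livers. The shares of the transcripts past the limits were 40.3%, 37.3% and 23.7%. The choice used these liver values, so the comparison of tissues is descriptive. IDH2 was lower in cerebellum than in any hormone liver, with 9.63 and 2.55 CPM in T2 cerebellum pools, 7.30 and 6.59 CPM in T3 cerebellum pools and 5.72 and 3.41 CPM in control cerebellum pools.

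In cerebellum most members had slightly higher levels with T3 than in controls. The log2 fold change over control was above 0 for 156 of 199 (78.4%). It was above 0 for 51.5% of 15770 transcripts tested, and for 56% of those past the limits. The median of the members was 0.23, against 0.01 over all tested. No member passed at an adjusted p under 0.05 by edgeR's quasi-likelihood test, as none of all transcripts did (0%). At an unadjusted p under 0.05, 32 members (16.1%) were higher and 6 (3.02%) lower, against 5.05% and 5.75% of all transcripts. Of 7305 transcripts past the limits and tested, 478 were higher and 373 lower. The exact test called 4 members and DESeq2 2. The 32 became 18 without T3 replicate 1 and 20 without control replicate 2, and the 6 became 2 without either T3 replicate. Both T3 pools lay above both control pools for 106 members (53.3%), against 29.9% of the transcripts past the limits. They lay below both for 16 (8.04%), against 16.9%.

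MRPS27 had the smallest p in that comparison, with 19.7 and 25.9 CPM in T2 cerebellum pools, 35.4 and 35.7 CPM in T3 cerebellum pools and 16.9 and 14.1 CPM in control cerebellum pools. The log2 fold change for T3 was 1.15 (SE 0.19, adjusted p = 0.328 by edgeR's quasi-likelihood test, 0.0038 by its exact test). COX5A had 139.9 and 155 CPM in T2 cerebellum pools, 233 and 215 CPM in T3 cerebellum pools and 130.2 and 152 CPM in control cerebellum pools, and for T3 0.65 (SE 0.12, adjusted p = 0.328 by edgeR). T3 pools stood clear of the other 4 pools for both genes, whereas T2 pools overlapped controls for COX5A. ENSONIT00000002488 was lower, with 135 and 104 CPM in T2 cerebellum pools, 97.9 and 109 CPM in T3 cerebellum pools and 145 and 157 CPM in control cerebellum pools, and for T3 -0.56 (SE 0.11, adjusted p = 0.328 by edgeR). PSMD8 followed closely, with 62.9 and 66.7 CPM in T2 cerebellum pools, 105 and 101 CPM in T3 cerebellum pools and 69.3 and 66.3 CPM in control cerebellum pools. With T3, COX5A was called higher by the exact test (adjusted p = 0.0103), DESeq2 (0.00968) and the fit without a low-count filter (0.019). ENSONIT00000002488 was called lower by the same 3 (0.0178, 0.0423 and 0.0409). For PSMD8 the exact test (0.023) and the fit without a filter (0.0454) called it higher, and DESeq2 did not call PSMD8 or MRPS27.

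With T2 in cerebellum the set was centred near 0. The log2 fold change was above 0 for 104 of 198 tested (52.5%), against 50% of 15271 transcripts and 53.5% of those past the limits. The median of the members was 0.02, against 0.00 over all tested. The quasi-likelihood test called no member and no transcript at all (0%), with 6 members higher and 6 lower at an unadjusted p under 0.05, against 2.23% and 2.74% of all transcripts, and both counts were 2 without control replicate 2. Both T2 pools lay above both control pools for 56 members (28.1%), against 19.8% of the transcripts past the limits. They lay below both for 35 (17.6%), against 16%. ISYNA1 had the smallest p, with 258 and 205 CPM in T2 cerebellum pools, 315 and 219 CPM in T3 cerebellum pools and 356 and 420.3 CPM in control cerebellum pools. Its log2 fold change with T2 was -0.76 (SE 0.15, adjusted p = 0.917 by edgeR), and with T3 -0.56 (SE 0.19). All 4 hormone pools were below both controls, and the exact test (0.0255), DESeq2 (0.0203) and the fit without a low-count filter (0.0029) called it lower with T2. ENSONIT00000021453 had 157 and 148 CPM in T2 cerebellum pools, 174 and 171 CPM in T3 cerebellum pools and 190.2 and 211 CPM in control cerebellum pools, again below both controls in each hormone pool. PSMD2 ran higher, with 486 and 409 CPM in T2 cerebellum pools, 341 and 512 CPM in T3 cerebellum pools and 319.9 and 342 CPM in control cerebellum pools, a log2 fold change with T2 of 0.43 (SE 0.13, adjusted p = 0.935 by edgeR).

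T3 and T2 pools were also set side by side without a control. Both T3 cerebellum pools were above both T2 pools for 98 members (49.2%), against 24.8% of the transcripts past the limits. They were below both for 12 (6.03%), against 15.8%. In thalamus-pituitary the counts were 53 (26.6%) and 20 (10.1%), against 19.6% and 17.7%.

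In thalamus-pituitary more members lay above control than below it with each hormone. With T2 the log2 fold change was above 0 for 149 of 199 (74.9%), against 50.1% of 16788 transcripts and 53.6% of those past the limits. Its median over the members was 0.13, against 0.00 over all tested. With T3 it was above 0 for 157 of 198 (79.3%), against 50% of 16996 transcripts and 54.7% of those past the limits. The median with T3 was 0.20, against 0.00. No member was called with either hormone by edgeR's quasi-likelihood test, its exact test or DESeq2, and the quasi-likelihood test called 0% of all transcripts with T2 and 0.00588% with T3. At an unadjusted p under 0.05, 14 members (7.04%) were higher and 3 (1.51%) lower with T2, against 3.2% and 2.96% of all transcripts. With T3, 24 (12.1%) were higher and 8 (4.04%) lower, against 4.14% and 4.71%. The 14 moved to 3 or 6 without T2 replicate 1 or 2 and to 29 or 5 without control replicate 1 or 2, where the 3 lower became 6 or 5. The 24 moved to 15 without either T3 replicate and to 13 without control replicate 2, and the 8 lower to 5 and to 3. Both T2 pools lay above both control pools for 88 members (44.2%), against 26.6% of the transcripts past the limits. They lay below both for 15 (7.54%), against 14.6%. For T3 these counts were 112 (56.3%), against 29%, and 14 (7.04%), against 15.6%.

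PSMD8 was among the smallest p-values with T3, with 96.8 and 88.03 CPM in T2 thalamus-pituitary pools, 93.8 and 101 CPM in T3 thalamus-pituitary pools and 71.3 and 63.4 CPM in control thalamus-pituitary pools. Its log2 fold change was 0.42 with T2 (SE 0.12) and 0.49 with T3 (SE 0.13, adjusted p = 0.513 by edgeR), and each hormone pool exceeded both controls. ENSONIT00000001820 had 107 and 108 CPM in T2 thalamus-pituitary pools, 133 and 153 CPM in T3 thalamus-pituitary pools and 101 and 85.2 CPM in control thalamus-pituitary pools, with T3 pools above the other 4. ENSONIT00000023684 had 90.3 and 82.2 CPM in T2 thalamus-pituitary pools, 95.6 and 95.9 CPM in T3 thalamus-pituitary pools and 69.6 and 64.6 CPM in control thalamus-pituitary pools. For ENSONIT00000023684 the 4 hormone pools were again clear of the controls. IQSEC1, an exchange factor for Arf GTPases, had 30.4 and 29.1 CPM in T2 thalamus-pituitary pools, 23.3 and 28.3 CPM in T3 thalamus-pituitary pools and 17.1 and 19.7 CPM in control thalamus-pituitary pools, with 0.67 for T2 (SE 0.17, adjusted p = 0.803 by edgeR). ENSONIT00000014619, higher in T2 than in T3 livers above, had lower levels here, with 55.9 and 61.7 CPM in T2 thalamus-pituitary pools, 71.2 and 54.1 CPM in T3 thalamus-pituitary pools and 78.6 and 90.3 CPM in control thalamus-pituitary pools. Its log2 fold change with T2 was -0.55 (SE 0.13, adjusted p = 0.803 by edgeR). Proteasome genes as a list, members or not, were above 0 in 16 of 16 with T2 and 15 of 16 with T3. In cerebellum 10 and 14 of 16 were. Shares over all transcripts tested were 50.1% and 50% here, and 50% and 51.5% in cerebellum. This list, drawn from the study's responsive genes, was singled out after its values were seen. Lists differed here: ubiquitin and COP9 genes were above 0 in 25 of 29 with T2. Mitochondrial ribosome genes were in 30 of 34 with T3, and cytoskeleton genes in 5 of 20 with each hormone.

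**Figure D4:**
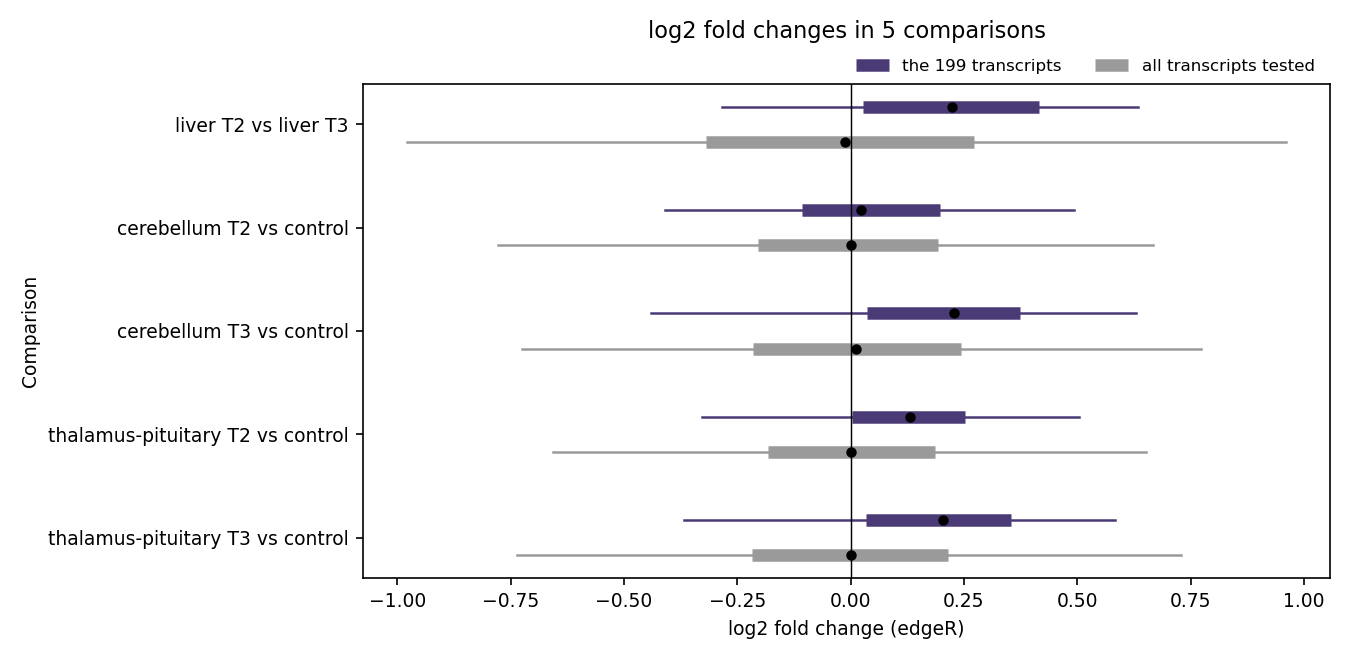
log2 fold changes of the 199 transcripts and of all transcripts tested in 5 comparisons: liver T2 over liver T3, whose libraries entered the choice, and each hormone over control in each brain tissue. Thin lines span the middle 90% of values, thick bars the quartiles and dots the medians, which are 0.22, 0.02, 0.23, 0.13 and 0.20 for the 199, from top to bottom.

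Counted without a model, all 4 hormone pools exceeded both controls for 49 members in cerebellum (24.6%), against 12.4% of the transcripts past the limits. They fell below both for 8 (4.02%), against 7.46%. In thalamus-pituitary the counts were 68 above (34.2%), against 16.1%, and 9 below (4.52%), against 7.13%. In both brain tissues at once 21 members (10.6%) qualified, against 4.17%. By the study's methods the 2 tissues would share fish, so they are not independent samples. With CPM on TMM library sizes the counts above were 44 and 54, against 11.3% and 11.4% of the transcripts past the limits. Leaving out cerebellum control replicate 1 or 2 gave 75 or 80, against 28.2% and 23.6%, and leaving out thalamus-pituitary control replicate 1 gave 113, against 32.9%. ENSONIT00000023840 qualified in both tissues with the widest gap in cerebellum: it had 68.01 and 57.7 CPM in T2 cerebellum pools, 64.8 and 68.98 CPM in T3 cerebellum pools and 42.8 and 43.7 CPM in control cerebellum pools. In thalamus-pituitary it had 61.9 and 56.1 CPM in T2 thalamus-pituitary pools, 65.3 and 60.00 CPM in T3 thalamus-pituitary pools and 45.3 and 43.5 CPM in control thalamus-pituitary pools. ENSONIT00000009155 and ENSONIT00000018973 came next in cerebellum, the first with 40.1 and 39.9 CPM in T2 cerebellum pools, 41.7 and 48.1 CPM in T3 cerebellum pools and 31.98 and 28.8 CPM in control cerebellum pools. ENSONIT00000018356 led in thalamus-pituitary, with 43.8 and 40.4 CPM in T2 thalamus-pituitary pools, 50.1 and 41.5 CPM in T3 thalamus-pituitary pools and 30.1 and 30.5 CPM in control thalamus-pituitary pools, followed by ENSONIT00000018761.

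**Figure D5:**
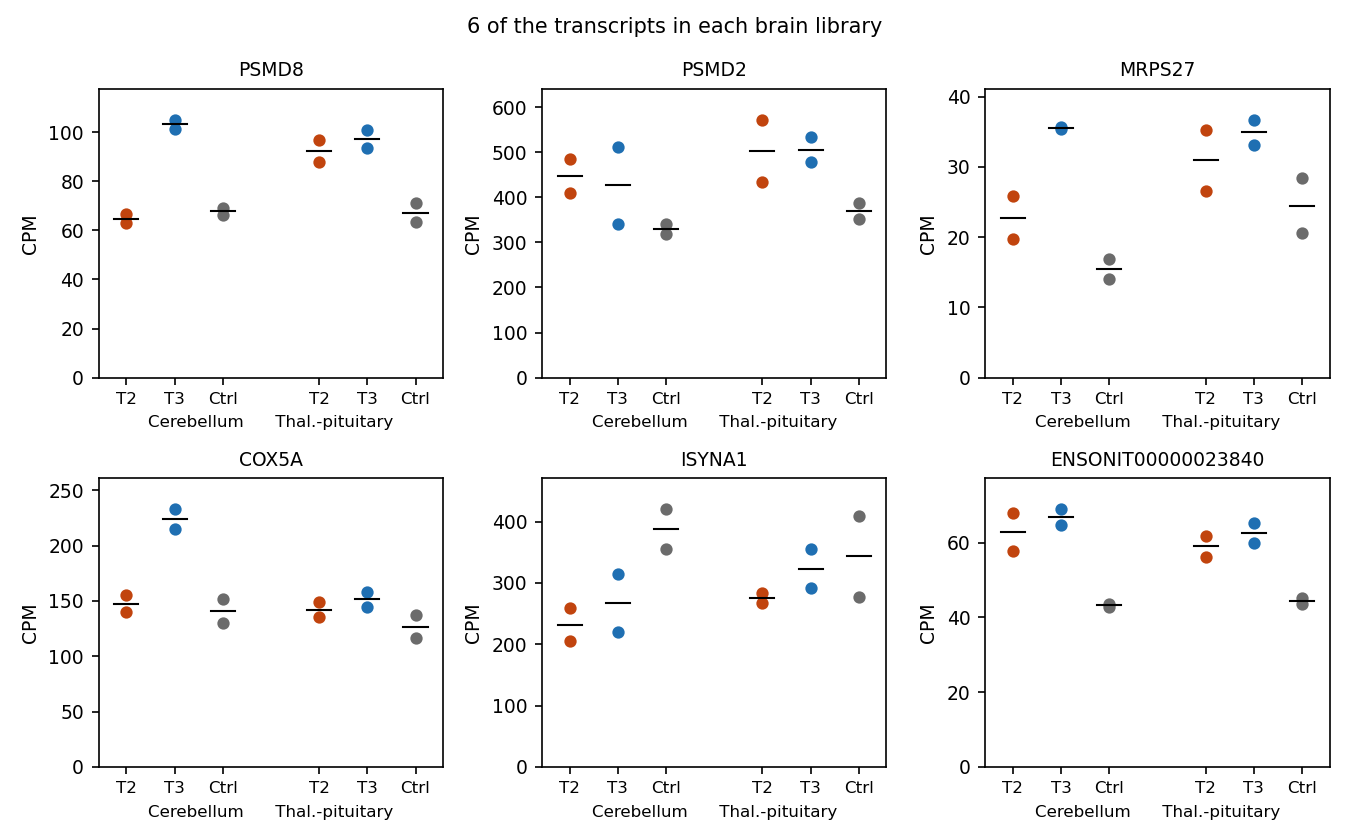
CPM in each brain library of PSMD8, PSMD2, MRPS27, COX5A, ISYNA1 and ENSONIT00000023840, with bars at the mean of the 2 pools and axes that start at 0. In cerebellum MRPS27 and COX5A are highest with T3, ISYNA1 is lower in all 4 hormone pools than in both controls, and ENSONIT00000023840 is higher in the hormone pools of both tissues.

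The response in cerebellum was set against that in thalamus-pituitary with an interaction term over 8 libraries. The fit took these libraries as independent, although by the study's methods the 2 brain tissues of a group would share fish. No member differed between the tissues at an adjusted p under 0.05 for T2 or T3 by edgeR's quasi-likelihood test, and none of all 17804 and 17771 transcripts did. At an unadjusted p under 0.05, 7 members differed for T2 (3.52%) and 9 for T3 (4.52%), close to the 3.7% and 4.28% of all transcripts, with 0% called at the adjusted threshold. Brain sums of the marker genes carry the same limit as in liver, since their symbols come from the study's list of responsive genes. The 5 blood marker transcripts matched had lower sums in the hormone pools of both brain tissues. They summed to 3411 and 3748 CPM with T2, 2980 and 3411 CPM with T3, and 5570 and 6915 CPM in control cerebellum pools. In thalamus-pituitary they summed to 3018 and 3749 CPM with T2, 2773 and 2961 CPM with T3 and 4204 and 7310 CPM in controls. Only 2 transcripts of the neuron markers sought were matched, so their sums are not a measure of neuronal content. The 2 summed to 3147 and 2346 CPM with T2, 1607 and 1832 CPM with T3 and 2219 and 3366 CPM in control cerebellum pools. In thalamus-pituitary they summed to 1882 and 1630 CPM with T2, 1414 and 1349.7 CPM with T3 and 1822 and 2309 CPM in controls, so that both T3 pools lay below both controls in each tissue. The connective tissue markers summed to 192 to 257 CPM in hormone pools of thalamus-pituitary, against 475 and 274 CPM in controls. The part of these markers in the values of the set was not tested.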

How the data were processed

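RNA was sequenced from 3 tissues under 3 treatments, 18 libraries in 9 groups of 2, taken from the sample titles. The authors checked reads with FastQC, aligned them with Bowtie 1.1.2 to Ensembl coding sequences of the Orenil1.0 build and deposited eXpress effective counts, which are estimated counts and were rounded here for the tests. Deposited tables of the authors' own edgeR comparisons hold fold changes and p-values and were not used. Comparisons used edgeR 4.0.16 (R 4.3.3) quasi-likelihood fits over the 4 libraries concerned, with filterByExpr, TMM scaling and Benjamini-Hochberg adjustment over all transcripts tested; standard errors were derived from the fold change and its F statistic. edgeR's exact test, DESeq2 1.42.0, other scalings, no filter, a replicate block and libraries left out were alternatives. The code was tested on simulated data. With 2 libraries per group, no permutation test of 2 groups within 1 tissue can reach 0.05.

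The 199 transcripts, the gene lists and the tests were chosen with earlier results of these data known. Named transcripts follow a rule: the 12 highest ranks, up to 4 per gene list, those at the limit, the 3 smallest p-values per comparison, the 3 clearest in each brain tissue and the 3 highest and lowest levels. Nothing says that the fish of a group were kept apart, so p-values measure only the spread between these samples. Replicate numbers are shared by the labels alone. Transcript coordinates and sequences were not used here, and 1 transcript among the top 200 is not reported.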

Additional observations from a re-analysis of the deposited data

Results flagged for a closer look

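These results are given because all libraries of 1 hormone moved in opposite directions against both controls in a pair of tissues. In each case the difference was not tested, except for the cerebellum against thalamus-pituitary contrast, in which no member passed. The liver side was fixed by the choice of transcripts, all of which were above both control livers. Over all 199, both T2 pools lay below both controls for 35 in cerebellum (17.6%) and 15 in thalamus-pituitary (7.54%). The shares of the transcripts past the limits were 16% and 14.6%. Both T3 pools did so for 16 (8.04%) and 14 (7.04%), against 16.9% and 15.6%. With T2 in cerebellum the share was thus near that of the transcripts past the limits, and in the other cases it was below it.

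Named members below both controls in cerebellum with T2 were VARS (log2 fold change -0.35), DPH5 (-0.30), FASTKD1 (-0.67), COX15 (-0.18), PPID (-0.33), PRPF19 (-0.12), AACS (-0.07), ENSONIT00000019738 (-0.72), ENSONIT00000014619 (-0.26), ENSONIT00000006206 (-0.24), ISYNA1 (-0.76), ENSONIT00000021453 (-0.40), ENSONIT00000002488 (-0.36) and IQSEC1 (-0.49). With T3 in cerebellum they were WDR3 (-0.13), DPH5 (-0.78), ISYNA1 (-0.56), ENSONIT00000021453 (-0.24) and ENSONIT00000002488 (-0.56). In thalamus-pituitary with T2 they were HYOU1 (-0.08), AACS (-0.26), ENSONIT00000019738 (-0.45), ENSONIT00000014619 (-0.55), ENSONIT00000021453 (-0.18) and ENSONIT00000002488 (-0.24). With T3 there they were TBL3 (-1.48), POLR2H (-0.41), ENSONIT00000014619 (-0.45), ENSONIT00000021453 (-0.20) and ENSONIT00000002488 (-0.29). ENSONIT00000021453 and ENSONIT00000002488 were on that side in both brain tissues with both hormones.

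Opposite sides in the brain tissues were taken by TBL3 with T3 (1.16 in cerebellum and -1.48 in thalamus-pituitary), POLR2H with T3 (0.44 and -0.41), DPH5 with T2 (-0.30 and 0.21), PRPF19 with T2 (-0.12 and 0.18), ENSONIT00000006206 with T2 (-0.24 and 0.30) and IQSEC1 with T2 (-0.49 and 0.67).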

How the results depend on the processing

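The choice of transcripts depended on 1 library: without liver control replicate 2 the rule kept 117 of the 199, and without the other liver libraries 158 to 194. TMM scaling, other added constants and other expression limits kept 160 to 194, thinning to the shallowest liver 166 and ranking by the ratio of means 154. The count of members called was 0 in each of the 5 comparisons as reported. It was 2 for liver T2 against liver T3, whose libraries the choice used, under both the exact test and DESeq2, 1 for cerebellum T2 under the exact test, DESeq2 and no low-count filter, and for cerebellum T3 it was 4 under the exact test, 2 under DESeq2 and 4 with no low-count filter. The cause was not tested for any of these values. All other alternatives run gave 0, leave-one-out fits included (0 to 0 in each comparison), where a lone library is assumed to vary like the others. With a replicate block the count of members called was 0 in all 5 comparisons. Deviations of same-numbered libraries correlated at -0.07, -0.21, 0.04, -0.01 and 0.16, so the numbers were not taken as pairs, and crossing them, chosen after seeing the data, also gave 0 members. The counts with all 4 hormone pools above both controls, also chosen after seeing the data, ran between 52 and 80 in cerebellum and between 74 and 113 in thalamus-pituitary when single libraries were left out, against 49 and 68. The share of the transcripts past the limits ran between 14.5% and 28.2% and between 19.5% and 32.9% in the same settings, against 12.4% and 16.1%. The counts outside 1.5 times were 75 and 80 without cerebellum control replicate 1 or 2 and 113 without thalamus-pituitary control replicate 1, and the cause was not tested. Counts of members higher at an unadjusted p under 0.05 also moved in brain, as they did for liver T2 against liver T3. In brain DESeq2 gave 1, 11, 5 and 9, against 6, 32, 14 and 24 for cerebellum T2 and T3 and thalamus-pituitary T2 and T3. For cerebellum T2 the exact test gave 2, a replicate block 3 and all 6 libraries of the tissue 12. The number of members above 0 in log2 fold change stayed within 1.5 times under every alternative, at 135 to 166, 100 to 111, 142 to 163, 133 to 162 and 142 to 164 for the 5 comparisons in the order of the report's plot of log2 fold changes. Depth limits the low members: 9 had 3 or fewer counts in each control liver, and 16 had none in control replicate 1, which held 2090615 counts.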
